A study of Mus musculus with 9 samples.

Results

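Apln and Aplnr encode the peptide apelin and its receptor, and they are the 2 members described here, out of 18094 genes in the deposited table of mouse cardiac endothelium. They were taken as the rows that carry these gene symbols, and both were found. The pair was selected on its measured levels in these 9 libraries, with their differences between groups known, so its levels and differences are a description, without a test. Endothelial cells were taken from fresh hearts with magnetic beads, and polyA RNA was sequenced from 9 libraries in 3 groups of 3. The groups were BPH/2J mice at 22 weeks of age, BPH/2J mice at 4 weeks of age, and BPN/3J mice at 22 weeks of age. BPH/2J mice inherit high blood pressure, while BPN/3J mice are their normotensive counterpart. No treatment, transgene or allele other than the strain was named for any group. With 1 line for each state, the effects of pressure and of strain cannot be told apart. The 4-week BPH/2J and the BPN/3J libraries differ in both strain and age. Nothing in the labels says that replicates came from separate mice, so p-values here reflect only library-to-library spread, which may be technical.

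Apelin is cut from a secreted precursor into shorter peptides that share their C-terminal end, and it acts on the G protein-coupled receptor encoded by Aplnr. The receptor signals mainly through inhibitory G proteins and also through arrestins, and a further peptide encoded by Apela acts on it. In blood vessels apelin is known for nitric oxide-dependent relaxation, for raising the contractility of the heart, and for a role in vessel growth, where Apln is a known marker of sprouting tip cells and Aplnr is strong in venous and capillary endothelium.

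Apln (ENSMUSG00000037010) lies on chromosome X, and Aplnr (ENSMUSG00000044338) lies on chromosome 2. In the GENCODE M21 annotation the Apln transcript has 3 exons and 231 coding bases, or 77 codons. The coding bases of apelin-36, the long form, are shown because every shorter active form is a C-terminal piece of it, and capitals mark the 13 codons of apelin-13.
Apln, coding bases of apelin-36: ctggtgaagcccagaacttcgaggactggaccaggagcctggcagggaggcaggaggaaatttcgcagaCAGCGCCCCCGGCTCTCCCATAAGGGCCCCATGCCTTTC
The longer annotated transcript of Aplnr has a single exon of 3699 bases, of which 1131 are coding, or 377 codons.

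Depth ranged over 28806840 to 32913813 counts, and 17769 to 17852 genes were detected per library. Levels are given as CPM, the count scaled to a common library size, after TMM scaling, a correction for differences in library composition. The endothelial cadherin Cdh5 lay between 2376 and 3287 CPM in all libraries. Xist, which marks an inactive X, lay between 0.0307 and 0.175 CPM and the Y-linked Ddx3y between 105 and 163 CPM, which bears on Apln as an X-linked gene. Mitochondrial genes took 1.45% to 1.91% of counts in 22-week BPH/2J and 2.02% to 2.78% in BPN/3J, so this share differed between the adult lines as well. In 4-week BPH/2J they took 2.63% in replicate 1, which stood apart from replicates 2 and 3 at 1.19% and 1.33%. Summed over 12 cell cycle genes chosen after their values were seen, the proliferation level was 57.0 to 119 CPM in 22-week BPH/2J, 527 to 653 CPM in 4-week BPH/2J and 52.5 to 80.5 CPM in BPN/3J. The 119 CPM belong to replicate 2 of 22-week BPH/2J, which stood apart from replicates 1 and 3 at 57.0 and 69.1 CPM.

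Aplnr, the receptor, was high in both BPH/2J groups and low in BPN/3J. It stood at 365, 498 and 378.5 CPM in 22-week BPH/2J, at 662, 731 and 652 CPM in 4-week BPH/2J, and at 71.6, 56.9 and 73.5 CPM in BPN/3J. The 3 groups did not overlap, and the order of the levels was 4-week BPH/2J, 22-week BPH/2J, BPN/3J from high to low. Group means were 414 ± 73.1 CPM in 22-week BPH/2J, 681 ± 43.0 CPM in 4-week BPH/2J and 67.3 ± 9.09 CPM in BPN/3J (SD, n = 3 each, as in all values given this way). The nearest libraries of 22-week BPH/2J and BPN/3J were 4.97-fold apart. The nearest libraries of the BPH/2J ages were closer, at 1.31-fold. These values rest on 1637 to 21235 counts per library. Counting error alone gives a coefficient of variation that averages at most 2.28% over a group's libraries, against 6.31% to 17.7% between the libraries of a group.

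Apln, the ligand, was high in young BPH/2J endothelium and much lower in both adult groups. It stood at 58.1, 102 and 87.7 CPM in 22-week BPH/2J, at 296, 259 and 277 CPM in 4-week BPH/2J, and at 46.7, 49.1 and 54.7 CPM in BPN/3J. The group means were 82.5 ± 22.3 CPM in 22-week BPH/2J, 277 ± 18.4 CPM in 4-week BPH/2J and 50.1 ± 4.13 CPM in BPN/3J. As for Aplnr, the order was 4-week BPH/2J, 22-week BPH/2J, BPN/3J, and no groups overlapped. The step between the adult lines was small: the lowest 22-week BPH/2J library and the highest BPN/3J library were 1.06-fold apart, and their exact 95% counting intervals overlap, at 55.4 to 60.8 CPM and 52.0 to 57.5 CPM. Counting intervals cover counting error only. Replicate 2 was the highest 22-week BPH/2J library for Apln and also for Aplnr, and it is the library with the highest proliferation level of that group. The cell cycle genes were also far higher in 4-week BPH/2J, the group with the most Apln and Aplnr, than in both adult groups. The part of proliferating cells, or of the mitochondrial share, in the levels of Apln and Aplnr was not tested.

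**Figure D1:**
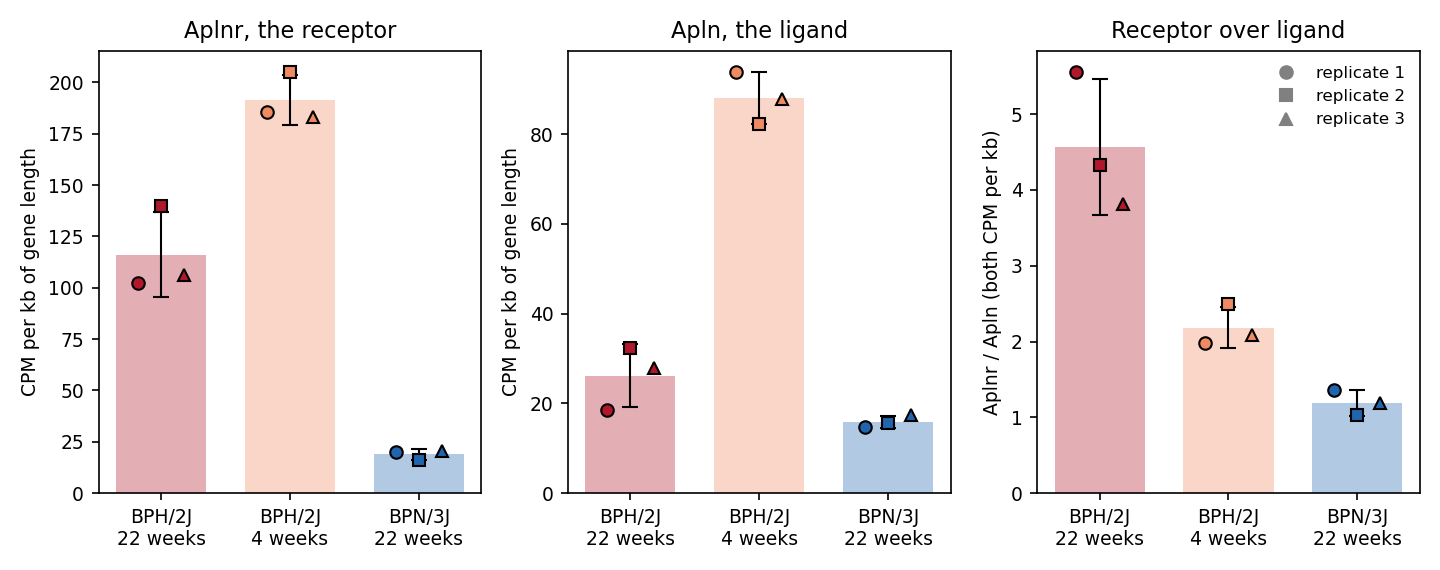
Levels of Aplnr and Apln in CPM per kilobase of gene length and their ratio, for 3 libraries in each group of 22-week BPH/2J, 4-week BPH/2J and BPN/3J. Bars are means, error bars are SD, and points are libraries with the symbol giving the replicate number. Aplnr averages 116, 191 and 18.9 CPM per kb in these groups, and Apln averages 26.2, 88.0 and 15.9 CPM per kb.

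In the comparison of the lines at 22 weeks, Aplnr was 6.15-fold higher in BPH/2J, a log2 difference of 2.62 ± 0.14 (SE). Only 1.70% of the 15277 tested genes had a larger difference in either direction. Apln was 1.65-fold higher in BPH/2J, a log2 difference of 0.72 ± 0.16 (SE), and 16.2% of tested genes differed more. For both members the libraries of the lines did not overlap, as was so for 55.7% of all tested genes.

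Between the ages of BPH/2J the sizes were the other way round. Apln was 3.36-fold lower at 22 weeks than at 4 weeks, a log2 difference of -1.75 ± 0.16 (SE), and 2.53% of tested genes differed more. Aplnr was 1.65-fold lower at 22 weeks, a log2 difference of -0.72 ± 0.13 (SE), and 16.8% of tested genes differed more. Neither member had libraries that overlap between the ages, and 51.2% of all tested genes share that.

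Between 4-week BPH/2J and BPN/3J the differences were at their largest for both members. Aplnr was 10.1-fold higher in 4-week BPH/2J, a log2 difference of 3.34 ± 0.14 (SE). Apln was 5.53-fold higher, a log2 difference of 2.47 ± 0.17 (SE). Of all tested genes 59.2% had no overlap here. Each group enters a pair of these comparisons, so their values are set side by side and are not independent of each other.

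Without replicate 2 of 22-week BPH/2J, the log2 difference of Apln between the adult lines was 0.54 and that of Aplnr was 2.47. Without replicate 1 of 4-week BPH/2J, the log2 difference of Apln between the ages was -1.70 and that of Aplnr was -0.74. The directions were the same as with all libraries.

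With the deposited gene lengths, the receptor stood above its ligand per kilobase in every library. The 2 were near equal in replicate 2 of BPN/3J, at 15.96 CPM per kb for Aplnr and 15.58 for Apln. Their order there depends on the lengths used, as the annotated Aplnr transcript given above is longer than the deposited length. The 22-week BPH/2J libraries had Aplnr to Apln ratios of 5.56, 4.33 and 3.82. The ratios of 4-week BPH/2J were 1.98, 2.49 and 2.08, and those of BPN/3J were 1.36, 1.02 and 1.19. The ratio was highest in 22-week BPH/2J, although both transcripts were more abundant in 4-week BPH/2J, and the groups did not overlap. By level per kilobase Aplnr ranked 377th of 15277 tested genes in 22-week BPH/2J, 210th in 4-week BPH/2J and 3106th in BPN/3J. Apln ranked 2194th in 22-week BPH/2J, 543rd in 4-week BPH/2J and 3646th in BPN/3J.

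Of 12 endothelial markers 7 were higher and 2 lower in 22-week BPH/2J than in BPN/3J, beside 19.8% and 18.2% of all tested genes. Kdr, 1 of the 12, was at 2953 CPM in 22-week BPH/2J against 1930 CPM in BPN/3J. It is also in the upstream, tip cell and capillary lists below. The sum over the 12 markers differed between the lines by much less than Aplnr. It ran from 13750 to 14120 CPM in 22-week BPH/2J, from 13190 to 14000 CPM in 4-week BPH/2J and from 10990 to 11550 CPM in BPN/3J. Set against that sum, Aplnr made up 2.97% ± 0.49 in 22-week BPH/2J, 5.01% ± 0.22 in 4-week BPH/2J and 0.597% ± 0.092 in BPN/3J. The adult lines were thus 4.98-fold apart for Aplnr on this scale. Apln made up 0.592% ± 0.156 in 22-week BPH/2J, 2.04% ± 0.20 in 4-week BPH/2J and 0.444% ± 0.047 in BPN/3J. For Apln the adult lines were 1.33-fold apart on this scale, and the ranges overlap, with 0.418% to 0.720% in 22-week BPH/2J and 0.409% to 0.498% in BPN/3J. In bulk RNA, a smaller share of cells that express a gene and less of its RNA per cell cannot be told apart.

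The enzymes that make and break apelin were described next, followed by the receptor's coupling proteins, its effectors and the factors known to act on Apln or Aplnr. Together these lists name 78 genes, of which 76 were tested, and Apela and Klkb1 were not analysed here. A gene is called higher or lower when edgeR's quasi-likelihood test gives an adjusted p below 0.05 over all tested genes. In 22-week BPH/2J against BPN/3J, 17 of the 76 were higher and 19 lower, a share of 47.4%, beside 38.0% of all tested genes, with medians of 0.02 and 0.02 on the log2 scale. With library totals as the only scaling the split became 23 higher and 10 lower. That scaling moved the calls over all tested genes too, with 62.5% of them higher, against 52% after TMM scaling. In 22-week against 4-week BPH/2J, 17 were higher and 17 lower, 44.7% beside 41.0% of all tested genes, with medians of -0.02 and 0.01. In 4-week BPH/2J against BPN/3J, 20 were higher and 22 lower, 55.3% beside 53.1% of all tested genes, with medians of -0.01 and 0.00. The shares over the whole pathway were therefore near the background in the last pair and a little above it in the first. The first count fell to 23 without replicate 3 of 22-week BPH/2J and to 23 without replicate 3 of BPN/3J. The second fell to 21 without replicate 3 of 4-week BPH/2J. Calls over all tested genes fell in these fits as well, to 4362 of 15568, 4496 of 15535 and 4606 of 15583. With all libraries they were 5810 of 15277 in the first comparison and 6257 of 15277 in the second.

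Of the 7 tested enzymes and convertases, 2 were higher and 1 lower in 22-week BPH/2J than in BPN/3J, 3 were higher and 1 lower at 22 than at 4 weeks, and 2 were higher and 1 lower in 4-week BPH/2J than in BPN/3J. The list medians were -0.12, -0.02 and -0.06 on the log2 scale. Prcp, a carboxypeptidase that can take the last residue from apelin, followed the group order of the members. It averaged 104 ± 19.8 CPM in 22-week BPH/2J, 174 ± 31.9 CPM in 4-week BPH/2J and 77.9 ± 2.49 CPM in BPN/3J. Its adjusted p by edgeR's quasi-likelihood test was 0.0395 between the adult lines, 0.00231 between the ages and 7.45e-05 between 4-week BPH/2J and BPN/3J. The adult call of Prcp was lost when any 1 adult library other than replicate 1 of 22-week BPH/2J was left out (adjusted p = 0.0570 to 0.142).

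Mme, the peptidase neprilysin that cleaves apelin, ran against the members. It averaged 1.53 ± 0.49 CPM in 22-week BPH/2J, 0.789 ± 0.399 CPM in 4-week BPH/2J and 3.41 ± 0.27 CPM in BPN/3J, with adjusted p = 0.0120 between the adult lines and 0.000323 between 4-week BPH/2J and BPN/3J in edgeR. The call of Mme between the ages (adjusted p = 0.0467) came with overlapping libraries and was lost in a fit on the BPH/2J groups alone (adjusted p = 0.0897) and when any 1 of 7 libraries was left out, the exceptions being replicate 2 of 22-week BPH/2J and replicate 1 of 4-week BPH/2J (adjusted p = 0.0626 to 0.1725). The convertase Pcsk6 averaged 67.5 ± 8.25 CPM in 22-week BPH/2J, 52.3 ± 7.43 CPM in 4-week BPH/2J and 36.1 ± 1.38 CPM in BPN/3J. It was 1.87-fold higher in 22-week BPH/2J than in BPN/3J (edgeR adjusted p = 0.000147). Its call between the ages (adjusted p = 0.0197) was lost without replicate 2 of 22-week BPH/2J (0.0740) or replicate 3 of 4-week BPH/2J (0.0687). Furin, which is known to cut the apelin precursor, was at 121 ± 1.77 CPM in 22-week BPH/2J, 134 ± 17.7 CPM in 4-week BPH/2J and 139 ± 2.92 CPM in BPN/3J. Furin was not called in any of the 3 comparisons, and Pcsk7 was also not called. Pcsk5 was called higher at 22 than at 4 weeks by a log2 difference of 0.54 ± 0.15 (SE, edgeR adjusted p = 0.0172), and that call was lost without replicate 3 of 22-week BPH/2J, or without replicate 2 or 3 of 4-week BPH/2J (adjusted p = 0.0539 to 0.0647).

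Among the 17 G proteins, arrestins, receptor kinases and regulators of G protein signalling, 4 were higher and 5 lower in 22-week BPH/2J than in BPN/3J. All tested genes had 19.8% higher and 18.2% lower in that comparison. At 22 against 4 weeks 7 were lower and 0 higher, beside 21.1% and 19.9% of all tested genes, with a median of -0.23 on the log2 scale. Of the 17, 2 were higher at an unadjusted edgeR p under 0.05, 1 was called higher by DESeq2 and 0 by limma-voom. In 4-week BPH/2J against BPN/3J 8 were higher and 3 lower, beside 27.8% and 25.3%, with a median of 0.10. Gnai2, an inhibitory G protein subunit, followed the order of the members, at 1176 ± 65.6 CPM in 22-week BPH/2J, 1479 ± 24.5 CPM in 4-week BPH/2J and 946 ± 5.96 CPM in BPN/3J. Its log2 difference was 0.31 ± 0.07 between the adult lines (edgeR adjusted p = 0.00494) and -0.33 ± 0.07 between the ages (adjusted p = 0.00336). Of the other inhibitory subunits, Gnai1 followed that order too and Gnao1 was not called. Gnai3 was lower in 22-week BPH/2J than in BPN/3J, at 156 ± 2.08 against 178 ± 4.50 CPM (edgeR adjusted p = 0.0162). The Gnai3 call was lost under library totals alone (0.0568) and without some single libraries (0.0515 to 0.0668). Arrb1, a beta-arrestin that carries receptors away from G proteins, was 1.55-fold higher in 22-week BPH/2J than in BPN/3J, at 101 ± 4.95 against 65.4 ± 5.08 CPM (edgeR adjusted p = 0.000326). Grk3, a kinase that marks active receptors for arrestin, was 1.95-fold lower, at 7.70 ± 1.43 CPM in 22-week BPH/2J and 15.0 ± 1.96 CPM in BPN/3J (adjusted p = 0.000658). Gna13, whose protein couples apelin signalling to Klf2 in endothelial culture, was 1.38-fold lower in 22-week BPH/2J than in BPN/3J (adjusted p = 0.00047).

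Of the 24 effectors, 3 were higher and 6 lower between the adult lines, beside 19.8% and 18.2% of all tested genes, with a median log2 difference of 0.02. Between the ages 7 were higher and 5 lower, beside 19.9% and 21.1%, with a median of -0.03. Between 4-week BPH/2J and BPN/3J 5 were higher and 7 lower, beside 27.8% and 25.3%, with a median of -0.01. Klf2, a flow-responsive transcription factor known to lie downstream of apelin, was at 340 ± 43.5 CPM in 22-week BPH/2J, 313 ± 36.2 CPM in 4-week BPH/2J and 728 ± 29.5 CPM in BPN/3J. Klf2 was thus lower in the groups with more Aplnr, by 2.14-fold between the adult lines (edgeR adjusted p = 3.37e-05), and was not called between the ages (adjusted p = 0.407). Nos3, the endothelial nitric oxide synthase, was at 280 ± 10.9 CPM in 22-week BPH/2J, against 282 ± 2.76 CPM in BPN/3J, and was not called (adjusted p = 0.954). It reached 338 ± 34.7 CPM in 4-week BPH/2J, where it was called higher than in both adult groups. The call against 22-week BPH/2J (edgeR adjusted p = 0.0175) was lost without replicate 1 of 22-week BPH/2J, or without replicate 2 or 3 of 4-week BPH/2J (0.0601 to 0.0913). The call against BPN/3J (adjusted p = 0.0147) was lost without replicate 3 of 4-week BPH/2J (0.0722). Fgf2, a growth factor of vessels, was at 2.27 ± 0.48 CPM in 22-week BPH/2J, 0.908 ± 0.259 CPM in 4-week BPH/2J and 0.897 ± 0.150 CPM in BPN/3J (adjusted p = 0.00246 between the adult lines).

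Among the 28 upstream factors, 8 were higher and 7 lower between the adult lines, 7 were higher and 4 lower between the ages, and 5 were higher and 11 lower between 4-week BPH/2J and BPN/3J. The medians were -0.02, 0.10 and -0.12 on the log2 scale. All tested genes had 19.8% higher and 18.2% lower in the first comparison. They had 19.9% and 21.1% in the second and 27.8% and 25.3% in the third. Hif1a, the hypoxia-inducible factor that acts on the Apln gene, followed the order of the members. It was at 136 ± 8.39 CPM in 22-week BPH/2J, 161 ± 2.04 CPM in 4-week BPH/2J and 92.4 ± 1.73 CPM in BPN/3J, with a log2 difference of 0.56 ± 0.06 between the adult lines (edgeR adjusted p = 4.71e-05) and -0.25 ± 0.06 between the ages (adjusted p = 0.00553). Epas1, the other main hypoxia-inducible factor of endothelium, ran the other way, at 2472 ± 121 CPM in 22-week BPH/2J, 1602 ± 62.2 CPM in 4-week BPH/2J and 2881 ± 103 CPM in BPN/3J. Its call between the adult lines (adjusted p = 0.0453) was lost under library totals alone (adjusted p = 0.102), upper-quartile scaling (0.0551) and no low-count filter (0.0539), and when any 1 library other than replicate 1 of 4-week BPH/2J was left out (0.0576 to 0.144).

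Foxo1, a transcription factor of endothelial quiescence that apelin signalling is known to restrain, was at 122 ± 10.4 CPM in 22-week BPH/2J, 93.0 ± 7.51 CPM in 4-week BPH/2J and 92.3 ± 0.873 CPM in BPN/3J (edgeR adjusted p = 0.00216 between the adult lines and 0.00227 between the ages). Kdr, the main VEGF receptor of endothelium, was 1.53-fold higher in 22-week BPH/2J than in BPN/3J, at 2953 ± 157 against 1930 ± 205 CPM (adjusted p = 0.000897), and was not called between the ages (adjusted p = 0.923). Angpt2, a ligand of the Tie2 receptor, was 1.84-fold lower in 22-week BPH/2J than in BPN/3J, at 61.9 ± 4.30 against 114 ± 14.0 CPM (adjusted p = 0.00111).

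The stretch before the Apln start is shown because some of the listed factors, such as Hif1a, are known to act on this gene. The 250 bases before the RefSeq start, at chrX:48034854-48035103 of GRCm38.p6 on the minus strand, are given with the match of an Sp1 motif in capitals.
Apln, 250 bases before the start: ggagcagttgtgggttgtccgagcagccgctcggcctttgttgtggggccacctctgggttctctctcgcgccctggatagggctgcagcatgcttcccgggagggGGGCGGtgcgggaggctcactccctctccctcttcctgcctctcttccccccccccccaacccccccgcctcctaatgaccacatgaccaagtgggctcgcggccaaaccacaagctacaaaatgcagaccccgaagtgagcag
The Sp1 letters GGGCGG, searched on both strands, had 1 match, with the first base 144 bases before the start, and 32.7% of the 32851 promoter windows held such a match. The hypoxia core letters ACGTG and GCGTG, the E-box CACGTG, the FOXO letters TGTTTAC, the RBPJ letters TGGGAA, the KLF letters CACCC, the ETS letters CCGGAA and the glucocorticoid receptor motif had no match in this window. The E-box letters contain ACGTG, so these searches overlap. Sequence outside this window, introns included, was not searched. Among all windows the shares with a match were 16.6% for ACGTG, 28.2% for GCGTG, 3.17% for TGTTTAC and 52.0% for CACCC.

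The list of receptors of the same family names 10 genes, of which 6 were in the data and 5 were tested. Of these 5, 1 was higher and 4 lower in 22-week BPH/2J than in BPN/3J, with a median log2 difference of -0.99. All tested genes had 19.8% higher and 18.2% lower there. Between the ages 2 of the 5 were higher, beside 19.9% of all tested genes. Between 4-week BPH/2J and BPN/3J 1 was higher and 4 lower, beside 27.8% and 25.3%. Ednrb, an endothelin receptor, was at 135.5 ± 6.97 CPM in 22-week BPH/2J, 90.3 ± 5.71 CPM in 4-week BPH/2J and 269 ± 20.3 CPM in BPN/3J (edgeR adjusted p = 5.56e-06 between the adult lines). Cxcr4, the receptor of Cxcl12 and a tip cell gene, was the one that was higher, at 182 ± 28.4 against 83.7 ± 3.32 CPM (adjusted p = 0.000133). Agtr1a, an angiotensin receptor related to Aplnr, was at 0.366 ± 0.038 CPM in 22-week BPH/2J and 1.13 ± 0.38 CPM in BPN/3J (adjusted p = 0.0120), and its call was lost without replicate 2 of BPN/3J (adjusted p = 0.0527).

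**Figure D2:**
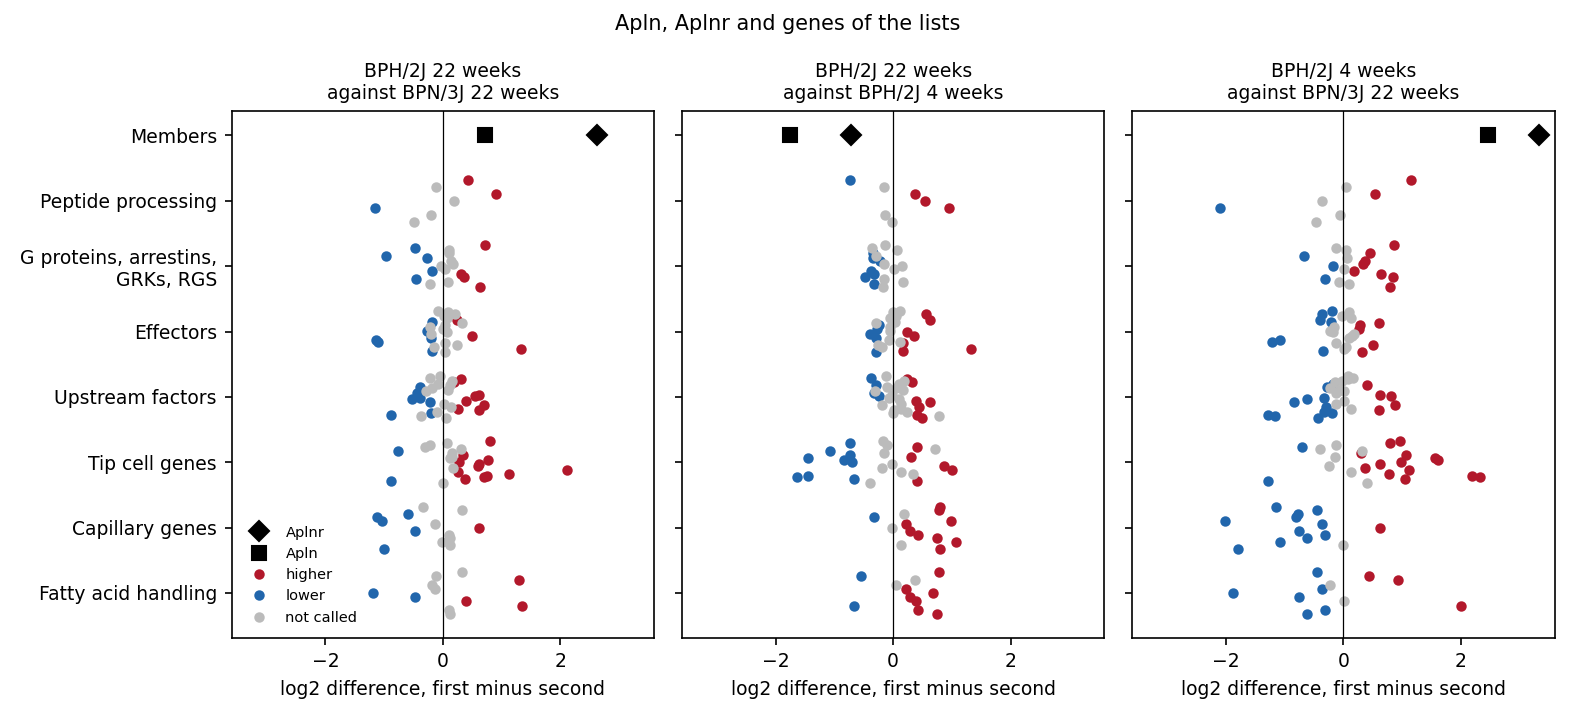
Log2 differences of Apln, Aplnr and the genes of 7 lists in the 3 comparisons, each as the first-named group minus the second. Points are genes, red and blue mark genes called higher and lower by edgeR, grey marks genes not called, and the black symbols mark Apln and Aplnr. Aplnr lies to the right of every listed gene in the comparison of the adult lines, at 2.62.

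Tip cell genes mark sprouting endothelium. Of 23, 12 were higher and 2 lower in 22-week BPH/2J than in BPN/3J, beside 19.8% of all genes higher and 18.2% lower. At 22 against 4 weeks 5 were higher and 9 lower, beside 19.9% and 21.1%. In 4-week BPH/2J against BPN/3J 14 were higher and 2 lower, beside 27.8% and 25.3%. The medians were 0.28, -0.17 and 0.63 on the log2 scale. Without replicate 2 of 22-week BPH/2J the first counts were 8 and 2. Calls over all tested genes fell in that fit too, to 4746 of 15587 from 5810 of 15277. Those called higher fell to 2448 from 3024.

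Esm1, a secreted product of tip cells, was 4.34-fold higher in 22-week BPH/2J than in BPN/3J, at 38.7 ± 4.07 against 8.93 ± 1.19 CPM (edgeR adjusted p = 9.29e-06). Esm1 was also higher at 22 than at 4 weeks, with 19.4 ± 4.72 CPM in 4-week BPH/2J (adjusted p = 0.000775). Mcam, an adhesion molecule, was at 410 ± 42.4 CPM in 22-week BPH/2J, 737 ± 41.8 CPM in 4-week BPH/2J and 241 ± 14.9 CPM in BPN/3J, in the order of the members (adjusted p = 0.0001 between the adult lines).

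Of 13 capillary genes, 1 was higher and 5 lower in 22-week BPH/2J than in BPN/3J, 9 were higher and 1 lower at 22 than at 4 weeks, and 1 was higher and 11 lower in 4-week BPH/2J than in BPN/3J, with medians of -0.13, 0.43 and -0.76. Of all tested genes 18.2% were lower between the adult lines, 19.9% higher between the ages and 25.3% lower between 4-week BPH/2J and BPN/3J. Rgcc, a marker of heart capillaries, was at 317 ± 6.97 CPM in 22-week BPH/2J, 160 ± 7.40 CPM in 4-week BPH/2J and 648 ± 58.7 CPM in BPN/3J (edgeR adjusted p = 4.57e-06 between the adult lines). Aqp1, a water channel, was 2.01-fold lower in 22-week BPH/2J than in BPN/3J (adjusted p = 0.000399).

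Fatty acid handling genes were listed because apelin is known to restrain fatty acid uptake by endothelium. Of 11, 3 were higher and 2 lower in 22-week BPH/2J than in BPN/3J, beside 19.8% and 18.2% of all tested genes. At 22 against 4 weeks 7 were higher and 2 lower, beside 19.9% and 21.1%. In 4-week BPH/2J against BPN/3J 3 were higher and 6 lower, beside 27.8% and 25.3%. The medians were 0.11, 0.37 and -0.32 on the log2 scale. Fabp5, a fatty acid-binding protein, followed the order of the members, at 395.5 ± 50.9 CPM in 22-week BPH/2J, 626 ± 6.70 CPM in 4-week BPH/2J and 155 ± 15.4 CPM in BPN/3J (edgeR adjusted p = 5.57e-06 between the adult lines). Lpl, the lipoprotein lipase, ran the other way, at 2128 ± 211 CPM in 22-week BPH/2J, 1322 ± 327 CPM in 4-week BPH/2J and 4857 ± 183 CPM in BPN/3J (adjusted p = 0.000301). Cd36, a fatty acid transporter, was at 6949 ± 562 CPM in 22-week BPH/2J, against 4130 ± 128 CPM in 4-week BPH/2J (adjusted p = 0.000183 between the ages).

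Some markers of other cell types moved with the groups too. For scale, 19.8% of all tested genes were higher and 18.2% lower between the adult lines. The shares were 19.9% and 21.1% between the ages, and 27.8% and 25.3% between 4-week BPH/2J and BPN/3J. Of 11 cardiomyocyte markers 8 were lower in 22-week BPH/2J than in BPN/3J and 9 were lower in 4-week BPH/2J than in BPN/3J. Their summed level was 433.5 to 520 CPM in 22-week BPH/2J, 324 to 530.5 CPM in 4-week BPH/2J and 756 to 935 CPM in BPN/3J, and 1 marker was at 0 in 1 BPN/3J library. Of 10 macrophage markers 9 were lower in 22-week BPH/2J than in BPN/3J and 10 were lower at 22 than at 4 weeks, with summed levels of 211.5 to 247 CPM in 22-week BPH/2J, 416.5 to 794 CPM in 4-week BPH/2J and 370 to 624 CPM in BPN/3J. The opposite direction had 0 cardiomyocyte or macrophage markers in these comparisons by edgeR, DESeq2 and limma-voom, and 0 at an unadjusted p under 0.05. Pericyte and smooth muscle markers summed to 1460 to 1752 CPM in 22-week BPH/2J, 1510 to 1877 CPM in 4-week BPH/2J and 1221 to 1401 CPM in BPN/3J, with 1 of 10 higher between the adult lines, 2 lower between the ages and 3 higher between 4-week BPH/2J and BPN/3J. Of 10 fibroblast markers 2 were higher and 3 lower between the adult lines, 3 were higher and 4 lower between the ages, and 4 were higher and 4 lower between 4-week BPH/2J and BPN/3J. Their summed level was 472 to 558 CPM in 22-week BPH/2J, 551 to 884 CPM in 4-week BPH/2J and 574.5 to 647 CPM in BPN/3J. Of 8 lymphocyte markers 1 was higher and 1 lower between the adult lines, 5 were higher between the ages, and 1 was higher and 2 lower between 4-week BPH/2J and BPN/3J. These summed to 41.4 to 87.4 CPM in 22-week BPH/2J, 29.99 to 45.7 CPM in 4-week BPH/2J and 46.0 to 50.7 CPM in BPN/3J. The part of these cell types in the levels of Apln and Aplnr was not tested.

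Vessel type markers were set beside the members as well. Among all tested genes 19.8% were higher and 18.2% lower between the adult lines. Between the ages the shares were 19.9% and 21.1%, and between 4-week BPH/2J and BPN/3J 27.8% and 25.3%. Of 8 tested venous markers 2 were higher between the adult lines, namely Ephb4 and Nrp2. Both calls were lost without replicate 2 of BPN/3J (edgeR adjusted p = 0.0716 and 0.0791), among other left-out libraries. Venous markers had 3 higher and 1 lower between the ages, and 3 higher and 1 lower between 4-week BPH/2J and BPN/3J. Of 10 arterial markers 7 were higher and 2 lower between the adult lines, 6 were higher between the ages, and 2 were higher and 3 lower between 4-week BPH/2J and BPN/3J. Gja4, an arterial connexin, had a log2 difference of 1.47 ± 0.14 between the adult lines. Of 8 endocardial markers 1 was lower between the adult lines, 4 were higher and 1 lower between the ages, and 2 were higher and 4 lower between 4-week BPH/2J and BPN/3J, with medians of 0.19, 0.78 and -0.48 on the log2 scale. The one that was lower between the adult lines was Bmp6, with a log2 difference of -0.95 ± 0.17 (edgeR adjusted p = 0.00136), and 0 were higher by edgeR, DESeq2 or limma-voom, with 1 higher at an unadjusted p under 0.05.

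The genes with levels most like those of each member were found by the root mean square difference of centred log2 CPM over the 9 libraries, among 11953 candidates at or above 1 CPM on average. The libraries fall into the groups of the design, so likeness mostly reflects a like order and size of group levels. For Aplnr the nearest 6 were Fam167b, Alad, Zfp661, Etohi1, Ankrd6 and Mfap4, at 0.30 to 0.39 log2 units, beside 1.44 for the spread of Aplnr itself. Alad, an enzyme of haem synthesis, was at 107 ± 5.73 CPM in 22-week BPH/2J, 123 ± 5.06 CPM in 4-week BPH/2J and 18.3 ± 2.20 CPM in BPN/3J. Zfp661, a zinc finger gene, was at 5.16 ± 0.26 CPM in 22-week BPH/2J, 5.41 ± 0.53 CPM in 4-week BPH/2J and 0.425 ± 0.080 CPM in BPN/3J. Etohi1 was at 9.22 ± 1.45 CPM in 22-week BPH/2J, 8.87 ± 0.50 CPM in 4-week BPH/2J and 1.39 ± 0.20 CPM in BPN/3J. These 3 genes shared a gap between the lines, and their BPH/2J ages lay closer together than those of Aplnr. In Fam167b and Mfap4 the mean levels of the ages lay further apart than in Aplnr. Fam167b, the nearest gene, was at 4.67 ± 0.92 CPM in 22-week BPH/2J, 8.46 ± 3.30 CPM in 4-week BPH/2J and 0.838 ± 0.153 CPM in BPN/3J. Mfap4 was at 4.11 ± 1.68, 9.32 ± 3.43 and 0.739 ± 0.302 CPM in the same groups.

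For Apln the nearest 6 were Col4a1, Nsl1, Mastl, Cdc20, Col4a2 and Gins2, at 0.15 to 0.18 log2 units, beside 1.06 for the spread of Apln itself. Col4a1, a basement membrane collagen chain, was at 2248, 3532 and 2769 CPM in 22-week BPH/2J, 7878, 9602 and 9031 CPM in 4-week BPH/2J, and 1646, 1665 and 1965 CPM in BPN/3J. Its replicate 2 was the highest of 22-week BPH/2J, as for Apln. Cdc20, an activator of mitotic exit, was at 7.95, 12.0 and 9.41 CPM in 22-week BPH/2J, 44.7, 33.1 and 42.4 CPM in 4-week BPH/2J, and 7.09, 6.67 and 7.54 CPM in BPN/3J. Mastl is a mitotic kinase, Nsl1 a kinetochore subunit and Gins2 a subunit of the replication helicase. Apln itself ranked 91st in likeness to Aplnr, and Aplnr ranked 1176th in likeness to Apln, at 0.81 log2 units.

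**Figure D3:**
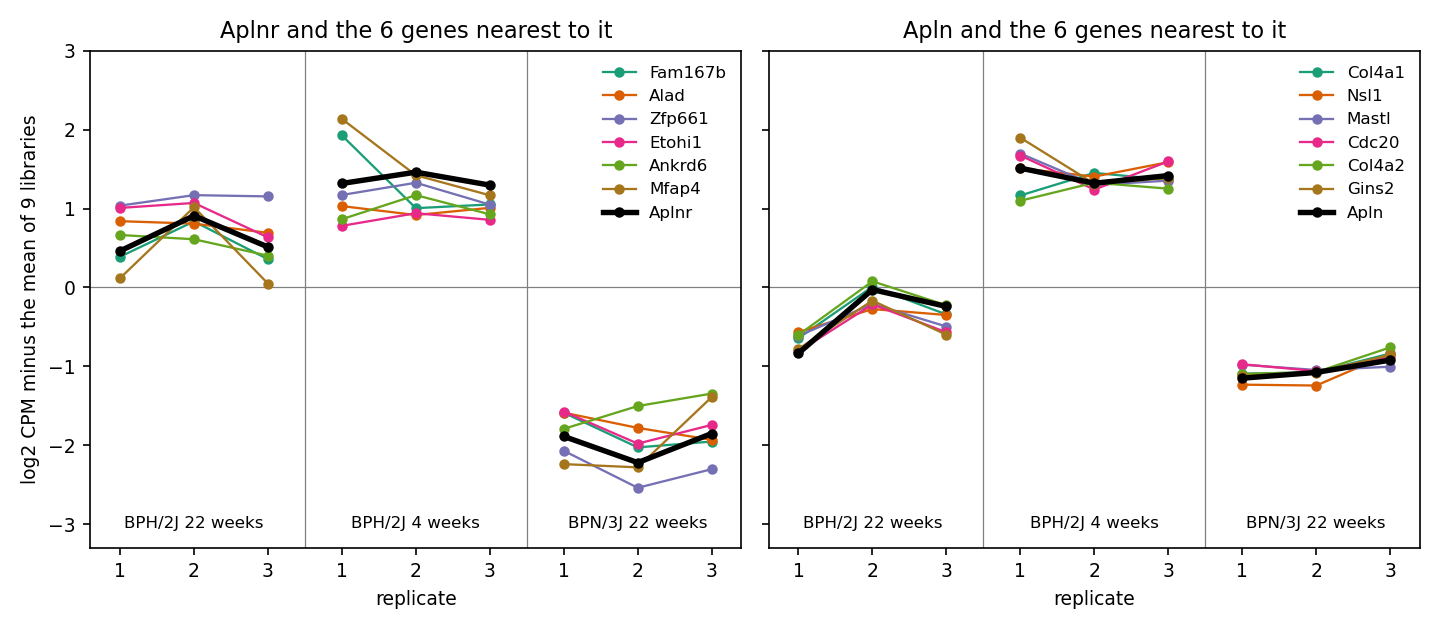
Log2 CPM of Aplnr and Apln (black) and of the 6 genes nearest to each, centred on the mean of 9 libraries, for replicates 1 to 3 of 22-week BPH/2J, 4-week BPH/2J and BPN/3J. Lines join the libraries of a group and imply no order of replicates. The genes near Aplnr are set apart mainly by BPN/3J, and those near Apln mainly by 4-week BPH/2J.

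The authors' deposited table gives log2 fold changes with the group order of its own headers. For 4-week over 22-week BPH/2J the authors' deposited table lists 0.71 for Aplnr and 1.74 for Apln. For BPN/3J over 22-week BPH/2J the authors' deposited table lists -2.63 for Aplnr and -0.73 for Apln. For 4-week BPH/2J over BPN/3J the authors' deposited table lists 3.35 for Aplnr and 2.47 for Apln. A further column of the authors' deposited table, which lies within 0.05 of 22-week BPH/2J minus the mean of both other groups for all 18094 genes, lists 0.96 for Aplnr and -0.50 for Apln.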

How the data were processed

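The submitters' processing notes name build mm9, TopHat2 2.0.13 with Bowtie2, Subread with its featureCounts, edgeR, CASAVA 1.8.2 and FastQC, without settings. For strand and annotation release, nothing is given in the sources used here. The authors deposited 1 table with raw counts per gene, CPM values, log2 fold changes, p-values and false discovery rates, and gene lengths, per the file headers. Deposited CPM carry library totals alone. Here the counts were filtered by filterByExpr, which kept 15277 genes, TMM-scaled and fitted by group with all 9 libraries in edgeR 4.0.16 (R 4.3.3), with a two-sided quasi-likelihood F test. P-values were adjusted by Benjamini-Hochberg across the tested genes, with 0.05 as the threshold. The SE is the absolute log2 difference over the square root of F. The pipeline was tested on simulated data. Levels per kilobase used the deposited lengths of 3149 bases for Apln and 3563 for Aplnr.

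Members and gene lists were chosen with earlier results of these data known. Genes named were those of the processing list, the 3 called genes with the smallest adjusted p per direction, list and comparison, 8 genes whatever their result, and the 6 genes nearest to each member, and the text gives a part of them, with 1 gene of the processing list not reported here. Sequences came from GENCODE M21 (GRCm38) and RefSeq (GRCm38.p6), and no coordinates were converted to mm9. A floor of 3 counts was 0.0911 to 0.104 CPM. Alternatives were other scalings and filters, DESeq2 1.42.0, limma-voom 3.58.1, the replicate number as a block, fits on 2 groups and leaving out each library. Figures used Python 3.11.15 and matplotlib 3.10.9.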

Additional observations from a re-analysis of the deposited data

How the results depend on the processing

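The log2 differences of both members kept their direction under every scaling, filter, tool and left-out library. With all libraries, Aplnr ranged over 2.61 to 2.68 between the adult lines, -0.73 to -0.68 between the ages and 3.32 to 3.36 between 4-week BPH/2J and BPN/3J, and Apln over 0.68 to 0.78, -1.79 to -1.71 and 2.45 to 2.49. With 1 library left out, Aplnr ranged over 2.47 to 2.71, -0.87 to -0.63 and 3.23 to 3.41, and Apln over 0.54 to 0.92, -1.92 to -1.54 and 2.42 to 2.53. Left-out libraries gave 23 to 44 calls among the 76 pathway genes between the adult lines and 21 to 44 between the ages. Between 4-week BPH/2J and BPN/3J they gave 35 to 48 calls, and all libraries gave 36, 34 and 42. Over all tested genes the calls in these fits ranged over 4362 to 7117, 4606 to 7383 and 6968 to 8682. All libraries gave 5810, 6257 and 8115. Without replicate 1 of 4-week BPH/2J the pathway calls between the ages split into 16 higher and 28 lower, against 17 and 17. Calls over all tested genes rose to 7383 in that fit, of which 50.2% were higher. The counts without the libraries that stand apart were chosen after seeing the data.

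Libraries of equal replicate number did not vary together (residual correlation -0.16 to 0.08, with 0 of 9 pairs over 0.1), so the numbers do not pair the samples. With the replicate block 32, 33 and 40 pathway genes were called, beside 5261, 5758 and 7723 of all 15277 tested genes. The calls of Prcp (edgeR adjusted p = 0.0614) and Epas1 (0.0841) between the adult lines were lost with the block. Among the calls of named genes, 11 were lost under at least 1 alternative that keeps all libraries and 34 when at least 1 library was left out. Depth limits what can be said of genes near the floor of 3 counts.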
